A study of Mus musculus with 7 samples.

Results

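The genes described here are 8 transcription factors that keep blood stem cells in a self-renewing state: Hlf, Meis1, Mecom, Gata2, Runx1, Erg, Prdm16 and Etv6. They were chosen by name, as the rows of the deposited expression table to which the platform annotation gives that symbol and no other. All 8 were found, each with a single transcript cluster (the set of probes that reads a gene), among 14860 genes with a cluster of their own and 23332 clusters in all. The samples were LSK cells, the bone marrow fraction that lacks mature lineage markers and carries Sca-1 and c-Kit, sorted from adult FVB mice that had received no treatment. The mice were 3 labelled TRAF6 transgenic, which carry the numbers 03, 04 and 05, and 4 wild-type littermates, which carry 21 to 24, with 1 Affymetrix mouse exon array per mouse. TRAF6, a ubiquitin ligase, relays signals from innate immune receptors, and the series asks what its excess does to blood stem and progenitor cells. The promoter that drives the transgene is not given in the sources used here.

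Stem cells make up a small share of LSK cells, and most of the remaining cells are multipotent progenitors that have begun to leave the self-renewing state. Gata2, Runx1 and Erg bind shared enhancers in blood progenitors together with Tal1, Lyl1, Lmo2 and Fli1. Meis1 binds DNA as a partner of Pbx and HoxA proteins, and Hlf, Mecom and Prdm16 are most active in the stem cells themselves and decline as cells differentiate. Fewer stem cells in the sort and less RNA of a factor per cell cannot be told apart in these bulk samples.

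RefSeq promoter windows of GRCm38.p6, from 250 bases before to 50 after a transcript start, were available for all 8 genes at 13 starts. Those of Hlf and Mecom are shown: Hlf because it was the only factor of the 8 whose groups did not overlap, and Mecom because its locus was read by 2 clusters with different values. The windows lie on the minus strand at chr11:90390868-90391167 for Hlf, at chr3:30509710-30510009 for the distal start of Mecom and at chr3:30013155-30013454 for its proximal start. Capitals mark matches to the DNA letters these factors are known to bind.
Hlf: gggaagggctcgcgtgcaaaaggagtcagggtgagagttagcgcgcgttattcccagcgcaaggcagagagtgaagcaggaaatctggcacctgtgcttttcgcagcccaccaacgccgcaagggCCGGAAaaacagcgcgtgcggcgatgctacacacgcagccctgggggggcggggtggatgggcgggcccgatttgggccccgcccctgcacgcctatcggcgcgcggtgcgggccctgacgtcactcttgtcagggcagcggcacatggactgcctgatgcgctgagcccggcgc
Mecom distal start: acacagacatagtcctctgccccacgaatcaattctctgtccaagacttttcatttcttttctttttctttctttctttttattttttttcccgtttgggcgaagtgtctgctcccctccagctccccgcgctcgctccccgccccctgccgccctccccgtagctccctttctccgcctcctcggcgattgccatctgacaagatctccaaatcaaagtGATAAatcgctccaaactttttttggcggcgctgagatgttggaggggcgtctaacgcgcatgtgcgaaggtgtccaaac
Mecom proximal start: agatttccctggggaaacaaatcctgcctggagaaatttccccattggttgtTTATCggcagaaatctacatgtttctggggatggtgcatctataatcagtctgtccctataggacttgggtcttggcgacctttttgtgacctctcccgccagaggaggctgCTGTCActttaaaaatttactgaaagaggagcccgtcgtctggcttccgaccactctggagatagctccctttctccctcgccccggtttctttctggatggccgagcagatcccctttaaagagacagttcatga
The letters searched, on both strands, were GATAA for GATA factors, CCGGAA for ETS factors, TGTGGT for RUNX factors, TGACAG for MEIS factors, TTANNTAA for PAR bZIP factors such as Hlf, and GACAAGATA for the Evi1 zinc fingers. The Hlf window held CCGGAA at position -125 from the start. The distal Mecom window held GATAA at -30, and the proximal window held the reverse complement of GATAA at -198 and that of TGACAG at -86. Across the 8 genes, GATAA was found in windows of Mecom and Erg, CCGGAA in Hlf, Meis1 and Runx1, TGTGGT in Meis1 and Runx1, TGACAG in Mecom and Erg, and TTANNTAA in Erg. Counted by window, GATAA was in 3 of the 13, CCGGAA in 3, TGTGGT in 2, TGACAG in 2, TTANNTAA in 2 and GACAAGATA in 0. Of 32851 RefSeq windows of the same length, 25.4% held GATAA, 14.9% CCGGAA, 16.8% TGTGGT, 19.2% TGACAG, 6.00% TTANNTAA and 0.119% GACAAGATA. No motif overlapped another in the 3 windows shown.

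Before the factors themselves, the arrays and the label were examined. Traf6 measured 8.06, 8.14 and 7.52 in log2 signal on labelled transgenic 03, 04 and 05, against 7.95, 8.20, 8.12 and 8.33 on wild type 21, 22, 23 and 24. The difference was -0.24 (SE 0.18, limma adjusted p = 0.676), with p = 0.286 by a two-sided exact permutation test whose smallest possible p is 0.0286. Without labelled transgenic 05 it was -0.05 (adjusted p = 0.888). Quantile normalization gave -0.27 with groups that did not overlap, at an unadjusted p of 0.0344 and an adjusted p of 0.317. Traf6 signal thus did not check the label, and it was not tested whether transgene RNA reaches these probes. Labelled transgenic 05 stood apart, with a median log2 signal of 5.98 against 6.09 to 6.21 on the other arrays, and a mean correlation of 0.966 with them against 0.970 to 0.976. It held the lowest value of 31.3% of all clusters, and of 42.1% of the 13999 clusters whose mean signal exceeded the 40th percentile. The Y-linked gene Eif2s3y stood at 3.05, 2.91 and 3.01 on labelled transgenic 03, 04 and 05, against 8.05, 8.51, 8.59 and 8.64 on wild type 21, 22, 23 and 24. The labels give no sex, and genotype and this Y-linked signal cannot be told apart. Kit, which encodes the sort marker c-Kit, averaged 10.45 ± 0.27 (SD, n = 3) in labelled transgenic and 10.50 ± 0.10 (SD, n = 4) in wild-type cells, and Cd34, another progenitor surface marker, averaged 11.00 ± 0.20 (SD, n = 3) in labelled transgenic and 11.12 ± 0.05 (SD, n = 4) in wild-type cells. Ly6a, which encodes Sca-1, was not analysed here.

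None of the 8 factors passed the test between genotypes. With limma over all 23332 clusters and Benjamini-Hochberg adjustment, 0 of 8 had an adjusted p under 0.05, against 0.0214% of clusters in either direction. At an unadjusted p under 0.05, 1 of the 8 was lower (Hlf) and 0 were higher, and 10.3% of all clusters were past that level. Groups did not overlap in 1 of the 8, again Hlf, against 10.4% of all clusters, 5.17% with the labelled transgenic arrays above and 5.18% with them below. The 8 differences, labelled transgenic minus wild type, had a median of -0.08 on the log2 scale, beside -0.0018 over all clusters, with 3 factors higher and 5 lower. Without labelled transgenic 05 the median was 0.08, with 6 higher and 2 lower, and with array weights, which give that array the lowest weight, it was 0.043. The direction of this median therefore rests on array 05.

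**Figure D1:**
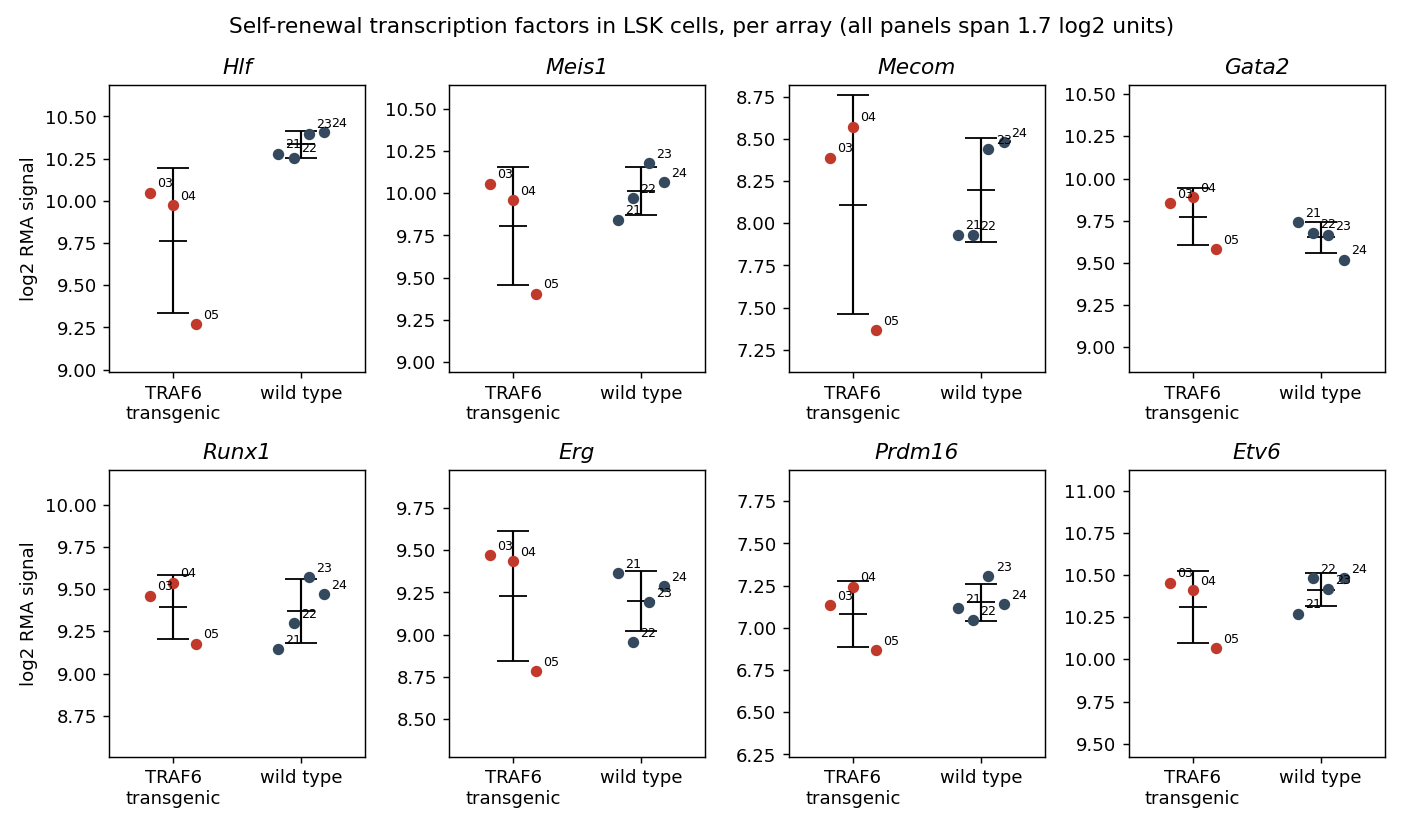
Log2 RMA signal (y axis) of each factor on the 3 labelled TRAF6 transgenic arrays (left, red) and the 4 wild-type arrays (right, dark), with mouse numbers. Bars are the mean and SD. Hlf is the panel in which the groups do not meet, and array 05 is the lowest of all 7 in 6 of the 8 panels.

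Hlf is a PAR bZIP factor and a marker of the most primitive stem cells, where it restrains cell cycle entry in the mouse. Its log2 signal was 10.05, 9.98 and 9.27 on labelled transgenic 03, 04 and 05, against 10.28, 10.26, 10.40 and 10.41 on wild type 21, 22, 23 and 24. All 3 labelled transgenic values lay below all 4 wild-type values, with array 05 lower than 03 and 04 by far more than these differed from each other. The mean was 9.76 ± 0.43 (SD, n = 3) against 10.33 ± 0.08 (SD, n = 4). The difference was -0.57 (SE 0.19, 95% interval -1.02 to -0.12), with an unadjusted limma p of 0.0204 and an adjusted p of 0.413. In absolute size it was larger than 93.3% of the differences of all clusters. Without array 05 the difference was -0.32 (SE 0.10, adjusted p = 0.226). Groups already separated cannot overlap when an array is left out, so only the size of this difference is informative. Quantile normalization gave -0.57 (adjusted p = 0.178), and subtraction of the array medians gave -0.51 (adjusted p = 0.262).

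Meis1 is a homeodomain protein that stem cells need for quiescence and for limiting oxidative stress. It measured 10.06, 9.96 and 9.41 on labelled transgenic 03, 04 and 05, against 9.84, 9.97, 10.18 and 10.06 on wild type 21, 22, 23 and 24. Arrays 03 and 04 lay inside the wild-type range, and array 05 stood at -0.44 relative to its lowest value. The difference was -0.21 (SE 0.18, 95% interval -0.62 to 0.21, adjusted p = 0.725), and -0.0063 without array 05 (95% interval -0.30 to 0.29).

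Mecom encodes a zinc finger protein in several forms, of which the long form, Mds1-Evi1, carries a PR domain and is the form that mouse stem cells need. Its cluster measured 8.39, 8.57 and 7.37 on labelled transgenic 03, 04 and 05, against 7.93, 7.93, 8.44 and 8.48 on wild type 21, 22, 23 and 24. The wild-type mice themselves fell into a low pair (21 and 22) and a high pair (23 and 24), array 04 exceeded them all and array 05 was below them all. Mecom had the largest within-group SD of the 8 factors, 0.474, larger than in 86.4% of clusters. The difference was -0.09 (SE 0.31, adjusted p = 0.949), and its 95% interval from -0.81 to 0.63 is the widest of the 8. Without array 05 it was 0.28 (SE 0.21, adjusted p = 0.568).

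The platform also holds a cluster named Mds1, a symbol that the RefSeq table lists as a synonym of Mecom. It measured 6.61, 6.47 and 4.58 on labelled transgenic 03, 04 and 05, against 6.30, 6.20, 6.73 and 6.58 on wild type 21, 22, 23 and 24. Arrays 03 and 04 were inside the wild-type range, whereas array 05 stood at -1.62 relative to the lowest other array. The Mds1 difference was -0.56 (SE 0.47, adjusted p = 0.720) with array 05 and 0.09 (SE 0.17, adjusted p = 0.838) without it. On array 05 the Mecom cluster deviated from its wild-type mean by -0.83 and the Mds1 cluster by -1.87. Which transcript starts each cluster reads was not analysed here.

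Prdm16, the closest relative of Mecom and a second PR domain protein that stem cells need, varied little. It measured 7.14, 7.24 and 6.87 on labelled transgenic 03, 04 and 05, against 7.11, 7.04, 7.31 and 7.14 on wild type 21, 22, 23 and 24. Arrays 03 and 04 were within the wild-type range and array 05 was below it. The difference was -0.07 (SE 0.13, 95% interval -0.37 to 0.23, adjusted p = 0.890).

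Gata2, a zinc finger factor needed for stem cell survival and also active in mast cell and megakaryocyte precursors, had the highest difference of the 8. It measured 9.85, 9.89 and 9.58 on labelled transgenic 03, 04 and 05, against 9.74, 9.68, 9.67 and 9.52 on wild type 21, 22, 23 and 24. Arrays 03 and 04 were above all wild-type arrays and array 05 was within their range. The difference was 0.12 (SE 0.12, 95% interval -0.15 to 0.40, adjusted p = 0.758). Without array 05 it was 0.22 (SE 0.10, adjusted p = 0.366) and the groups did not overlap.

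Runx1, the DNA-binding subunit of core binding factor, is needed for stem cells to form in the embryo and for balanced output in the adult. It measured 9.46, 9.54 and 9.18 on labelled transgenic 03, 04 and 05, against 9.14, 9.30, 9.57 and 9.47 on wild type 21, 22, 23 and 24. Every labelled transgenic value was inside the wild-type range. The difference was 0.02 (SE 0.15, 95% interval -0.32 to 0.36, adjusted p = 0.977).

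Erg and Etv6 share the ETS DNA-binding domain, Erg mostly as an activator that is also used by endothelium and Etv6 as a repressor that keeps adult stem cells alive. Erg measured 9.47, 9.44 and 8.78 on labelled transgenic 03, 04 and 05, against 9.37, 8.95, 9.19 and 9.29 on wild type 21, 22, 23 and 24. Arrays 03 and 04 were the 2 highest and array 05 the lowest of all. Its difference was 0.03 (SE 0.20, 95% interval -0.43 to 0.49, adjusted p = 0.975), and 0.25 (SE 0.14, adjusted p = 0.434) without array 05, where the groups did not overlap. Etv6 measured 10.46, 10.41 and 10.07 on labelled transgenic 03, 04 and 05, against 10.27, 10.48, 10.42 and 10.48 on wild type 21, 22, 23 and 24. Array 05 alone left the wild-type range, and the difference was -0.10 (SE 0.13, 95% interval -0.40 to 0.20, adjusted p = 0.827).

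**Figure D2:**
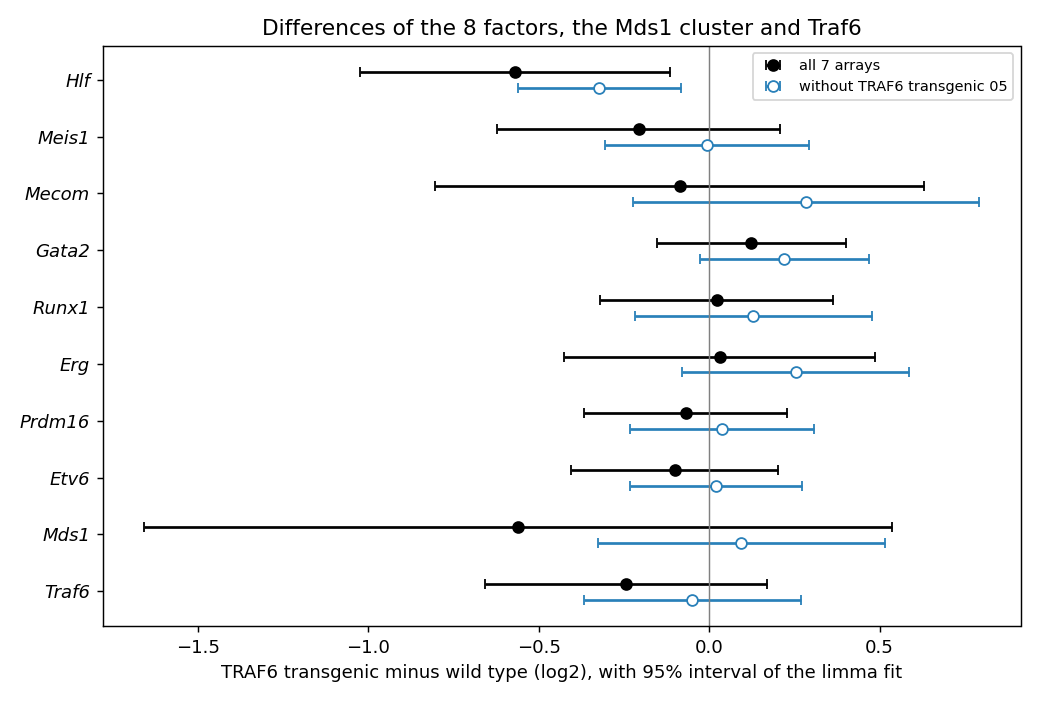
Difference between labelled TRAF6 transgenic and wild-type arrays (x axis, log2) for the 8 factors, the Mds1 cluster and Traf6, with the 95% interval of the limma fit, on all 7 arrays (filled) and without labelled transgenic 05 (open). Hlf is at -0.57 with all arrays and at -0.32 without array 05, and Mecom is at -0.09 with all arrays and at 0.28 without array 05.

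Array 05 lay apart from arrays 03 and 04 for most factors. It was below the wild-type mean for 8 of 8 factors, with a median deviation of -0.38, whereas over all clusters 60.6% were below that mean with a median of -0.09, and over clusters above the 40th percentile 69.5% with a median of -0.16. The deviations on array 05 were graded, from -1.07 for Hlf, -0.83 for Mecom and -0.61 for Meis1 to -0.19 for Runx1 and -0.07 for Gata2. On array 03, 6 of 8 factors were above the wild-type mean and 2 below, and on array 04, 5 above and 3 below. Their median deviations were 0.07 and 0.13. Over all clusters 42.4% were below that mean on array 03 and 46.5% on array 04, with medians of 0.05 and 0.02. Over clusters above the 40th percentile these shares were 34.7% and 41.2%, with medians of 0.11 and 0.07. The SD was larger in labelled transgenic than in wild-type cells for 8 of 8 factors. This was so for 60.1% of all clusters and 65.4% of those above the 40th percentile. Of the lists described below, it was also so for 14 of 15 relatives, 16 of 18 stem cell markers and 7 of 13 partners. With array 05 left out, groups did not overlap in 3 of 8 factors, Gata2 and Erg above and Hlf below, against 27.9% of all clusters (18.7% above and 9.15% below).

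**Figure D3:**
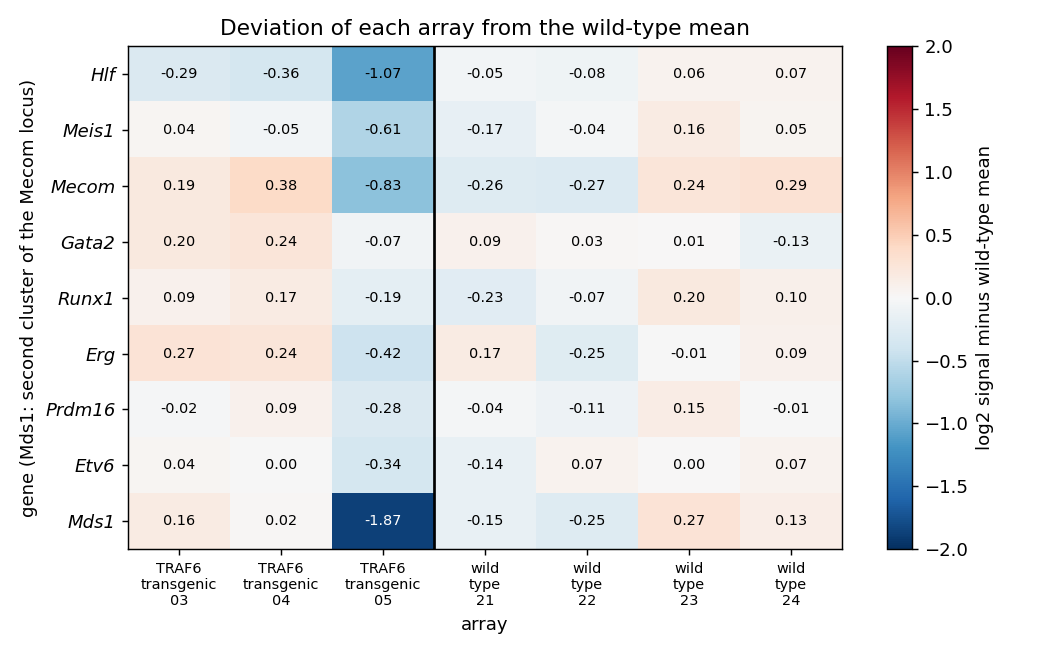
Log2 signal of each factor and of the Mds1 cluster minus its wild-type mean (colour and number), by array, with labelled TRAF6 transgenic arrays left of the line. Array 05 is below the wild-type mean in every row, most for Mds1 (-1.87) and Hlf (-1.07), and Hlf is the row in which arrays 03 and 04 are also both clearly below it, at -0.29 and -0.36.

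The genes whose profile over the 7 arrays was most like that of each factor were found by the root mean square difference between log2 profiles centred on their own means. Candidates were genes whose SD was at least 0.5 times that of the factor. The nearest to Hlf were Robo4, a guidance receptor of stem cells and endothelium (0.053 log2 units), and Nfkbie, an inhibitor of NF-kB (0.063). Robo4 measured 7.49, 7.44 and 6.61 on labelled transgenic 03, 04 and 05, against 7.65, 7.66, 7.79 and 7.70 on wild type 21, 22, 23 and 24. The groups of Robo4 did not overlap, and its difference was -0.52 (SE 0.22, adjusted p = 0.469). Because Robo4 was picked among 7051 candidates for its likeness to Hlf on these arrays, both values repeat those of Hlf by selection. The nearest to Erg was Tie1, a receptor tyrosine kinase of endothelium (0.030), followed by Cand2 (0.041). Tie1 measured 8.30, 8.29 and 7.60 on labelled transgenic 03, 04 and 05, against 8.20, 7.82, 8.05 and 8.05 on wild type 21, 22, 23 and 24. As it was picked among 11697 candidates for its likeness to Erg, these values repeat those of Erg by selection. For the other factors the nearest genes were Dst (0.033) and Tug1 (0.044) to Meis1, Galc (0.093) and Klhl4 (0.097) to Mecom, and Tert (0.034) and Noxo1 (0.035) to Gata2. Zdhhc5 (0.030) and Tcf20 (0.043) were nearest to Runx1, Jade1 (0.037) and Elf2 (0.038) to Prdm16, and Ivns1abp (0.024) and Pgap6 (0.032) to Etv6. Among the factors themselves, Runx1 and Prdm16 had the smallest difference (0.097) and Hlf and Gata2 the largest (0.387). This measure is not scaled, so it also depends on how much each gene varied. The SD over the 7 arrays was 0.173 for Runx1 and 0.141 for Prdm16, and 0.397 for Hlf and 0.135 for Gata2.

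Proteins that work with these factors on DNA showed no call. Of 16 partners, 13 had a cluster of their own, 9 higher and 4 lower, and 0 passed the adjusted threshold, with 1 lower and 0 higher at unadjusted p under 0.05 (background 5.05% and 5.22% of all clusters). Spi1, the PU.1 factor that Runx1 activates and works with, differed by -0.36 (SE 0.13, adjusted p = 0.417). It measured 8.91, 8.93 and 8.71 on labelled transgenic 03, 04 and 05, against 9.02, 9.13, 9.29 and 9.40 on wild type 21, 22, 23 and 24, so the groups did not overlap. Lyl1, a bHLH partner of Gata2, stood at 0.32 (SE 0.15, adjusted p = 0.518), also with groups that did not overlap, and Ctbp1, a corepressor of Mecom, at 0.21 (SE 0.13, adjusted p = 0.614). The list's median was 0.06, and it turned to -0.024 and -0.035 without labelled transgenic 03 and 04. It was 0.16 without labelled transgenic 05, where 3 partners were higher at unadjusted p under 0.05 (11.7% of all clusters were) and 7 of 13 lay above all wild-type arrays (18.7%). With array weights it was 0.18, with 3 higher at that level (13.1% of all clusters).

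Relatives that share a DNA-binding domain with a factor included Gata1, the erythroid relative of Gata2 that replaces it on shared sites as red cell precursors mature. It measured 7.85, 8.04 and 8.10 on labelled transgenic 03, 04 and 05, against 7.50, 7.33, 7.41 and 7.31 on wild type 21, 22, 23 and 24. The groups did not overlap, and the difference was 0.61 (SE 0.11, unadjusted p = 0.00065, adjusted p = 0.279), beside 0.12 for Gata2. Etv3, an ETS repressor, stood at -0.46 (SE 0.15, adjusted p = 0.399) and Runx3, a relative of Runx1, at -0.31 (SE 0.14, adjusted p = 0.496), both with groups that did not overlap. Of 20 relatives 15 were measured, 5 higher and 10 lower, with 0 past the adjusted threshold, 1 higher and 1 lower at unadjusted p under 0.05 (5.22% and 5.05% of all clusters) and a median of -0.04. The count lower was 3 without labelled transgenic 04 (4.32% of all clusters) and with quantile normalization (6.36%). The median turned to 0.013 after centring, 0.015 with array weights and 0.029 without labelled transgenic 05.

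Genes described as targets of the factors in blood cells differed in both directions. Of 23 targets 20 were measured, and 0 passed the adjusted threshold, while 6 were lower and 2 higher at unadjusted p under 0.05, against 5.05% and 5.22% of all clusters. The count lower was 3 without wild type 23 (3.73% of all clusters), and the count higher 4 with array weights (13.1%). Cdkn1a, the cell cycle inhibitor p21, measured 10.61, 11.00 and 10.61 on labelled transgenic 03, 04 and 05, against 11.58, 11.49, 11.58 and 11.51 on wild type 21, 22, 23 and 24. All 3 labelled transgenic arrays were below the wild-type range, and the difference was -0.80 (SE 0.13, adjusted p = 0.279). Flt3, a cytokine receptor of early progenitors, stood at -0.67 (SE 0.13, adjusted p = 0.283) and Gfi1b, a repressor of the erythroid and megakaryocyte lines, at 0.57 (SE 0.13, adjusted p = 0.311), both with groups that did not overlap. The list's median was -0.08, but 0.066 without labelled transgenic 05 and 0.048 with array weights.

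Other markers of stem cell surface and cycle were mostly lowest on array 05. They include Kit, the sort marker, and Cd34, a progenitor marker, so the list is not specific to long-term stem cells. Of 24 markers 18 were measured, 8 higher and 10 lower, with 0 past the adjusted threshold. At unadjusted p under 0.05, 1 was lower (Robo4) and 0 were higher, against 5.05% and 5.22% of all clusters. Procr, the endothelial protein C receptor that marks stem cells, stood at -0.44 (SE 0.20, adjusted p = 0.503) and Cdkn1c, the quiescence-linked inhibitor p57, at -0.22 (SE 0.11, adjusted p = 0.522). Among the 8 with a higher mean, named after their values were seen, Tgm2 stood at 0.41 (SE 0.23, adjusted p = 0.588), Ndn at 0.37 (SE 0.23, adjusted p = 0.623) and Slamf1, the stem cell surface marker CD150, at 0.26 (SE 0.23, adjusted p = 0.734). Array 05 held the lowest value for 15 of these 18 markers. The list's mean level was 7.67 on labelled transgenic 03, 7.67 on 04 and 7.13 on 05, against 7.40 to 7.59 for the wild-type mice. Arrays 03 and 04 were thus above all wild-type arrays and array 05 below them. The list's median difference was -0.06, and 0.21 without array 05 and 0.13 with array weights. Without array 05, 11 markers were higher and 7 lower, with 7 higher at unadjusted p under 0.05 (11.7% of all clusters) and 9 of 18 above all wild-type arrays (18.7%). With array weights 5 were higher at unadjusted p under 0.05, against 13.1% of all clusters.

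**Figure D4:**
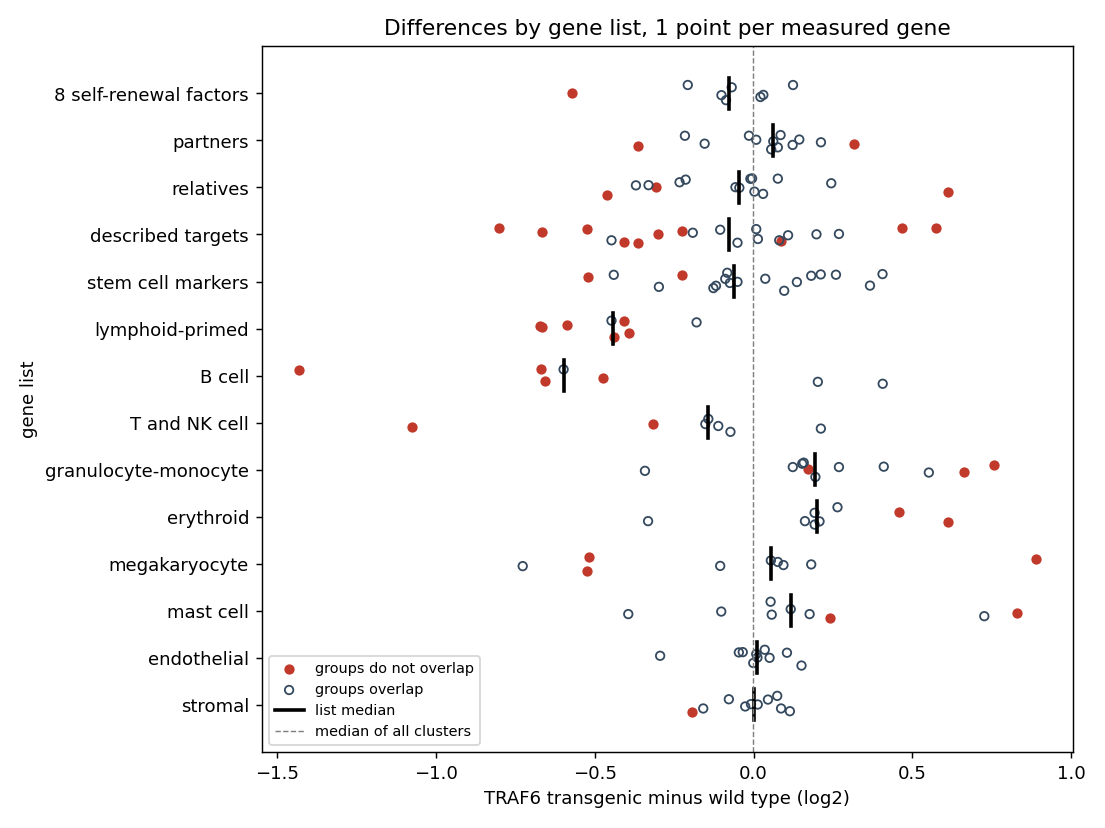
Difference between labelled TRAF6 transgenic and wild-type arrays (x axis, log2) for each measured gene of the 8 factors and 13 other lists (rows), with list medians as black bars and the median of all clusters dashed. Filled points are genes whose groups do not overlap. The lymphoid-primed and B cell lists lie mostly below 0, with medians of -0.44 and -0.60, and the 7 factors other than Hlf lie between -0.21 and 0.12.

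Mean levels of marker lists of other cells that the gate could hold did not overlap between the groups for 6 of 9 lineages. No background share was computed for list means, while among single clusters groups did not overlap in 10.4%. The lists were chosen with earlier results of these data known, so this count is a description only. It was not recomputed in the alternatives or with single genes left out. The part of these cells in the values of Hlf and the other factors was not tested. Lymphoid-primed progenitor markers were lower for 8 of 8 measured genes, with a median of -0.44 and list means of 7.63 to 7.87 against 8.13 to 8.39 in wild type. Of these, 6 were lower at unadjusted p under 0.05, with Flt3 as above, Satb1 at -0.44 (SE 0.12) and Cd52 at -0.67 (SE 0.20). B cell markers were lower for 5 of 7, with a median of -0.60 and list means of 6.06 to 6.25 against 6.47 to 6.75. Ebf1 and Pax5, factors of B cell commitment, stood at -1.43 (SE 0.23) and -0.66 (SE 0.14), and the surface marker Cd37 at -0.47 (SE 0.12). T and NK cell markers were lower for 6 of 7, with a median of -0.14 and list means of 5.84 to 5.96 against 6.00 to 6.25. Cd28 stood at -1.08 (SE 0.20), Cd4 at -0.32 (SE 0.12) and Nkg7 at -0.15 (SE 0.13). Without labelled transgenic 03, 4 of the 7 were lower and 3 higher, with a median of -0.12. Of these 7 genes 4 were below the 40th percentile of mean signal.

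Granulocyte and monocyte progenitor markers were higher for 10 of 11, with a median of 0.19 and list means of 8.11 to 8.35 against 7.84 to 8.07 in wild type. The granule proteases Ctsg and Prtn3 stood at 0.76 (SE 0.13) and 0.66 (SE 0.12), and Cd48, a surface marker that stem cells lack, at 0.55 (SE 0.19). Erythroid markers were higher for 7 of 8, with list means of 7.72 to 7.89 against 7.49 to 7.70. The groups came close, with 7.72 on labelled transgenic 04 and 7.70 on wild type 22. This list includes Gata1, described above among the relatives, at 0.61 (SE 0.11). The water channel gene Aqp1 stood at 0.46 (SE 0.18) and Car2 at -0.33 (SE 0.14). Mast cell markers, of a line that also uses Gata2, were higher for 7 of 9, with list means of 6.15 to 6.28 against 5.97 to 6.07. Of these 9 genes 4, among them the receptor gene Fcer1a, were below the 40th percentile of mean signal. Of the 5 above it 3 were higher, and the list's median of 0.12 was 0.05 there. Among all 9, Gzmb stood at 0.83 (SE 0.19), Fcer1a at 0.73 (SE 0.25) and Prss34 at -0.39 (SE 0.17). At unadjusted p under 0.05, the counts higher and lower were 0 and 6 for lymphoid-primed, 1 and 5 for B cell, 0 and 2 for T and NK cell, 3 and 0 for granulocyte and monocyte, 2 and 0 for erythroid, and 2 and 1 for mast cell markers, against 5.22% higher and 5.05% lower of all clusters. The count of 3 for granulocyte and monocyte markers was 6 without labelled transgenic 05 (11.7% of all clusters), 6 with quantile normalization (7.56%), 6 after centring (9.25%) and 7 with array weights (13.1%). None of these markers, lymphoid or myeloid, had a limma adjusted p under 0.05, the lowest being 0.279.

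Mean levels of the megakaryocyte, endothelial and stromal lists overlapped between the groups. Megakaryocyte markers averaged 7.96 to 8.57 against 8.33 to 8.43 in wild type, with array 05 at the low end, and 5 of 9 were higher, with a median of 0.05. Without labelled transgenic 04 only Selp of the 9 was higher, and the median was -0.066. It was -0.024 without labelled transgenic 03 and -0.082 without wild type 23. The platelet chemokine genes Pf4 and Ppbp stood at -0.52 (SE 0.15) and -0.52 (SE 0.16), and Selp, which encodes P-selectin, at 0.89 (SE 0.26). Endothelial markers, which matter because endothelium also uses Erg and Gata2, averaged 6.02 to 6.19 against 6.05 to 6.16, with 6 of 10 genes below the 40th percentile of mean signal, among them the defining marker Cdh5. Emcn stood at -0.29 (SE 0.14), Sox18 at 0.15 (SE 0.12) and Kdr at 0.11 (SE 0.11). Stromal markers averaged 4.72 to 4.74 against 4.68 to 4.86, with 7 of 10 below that percentile, Cxcl12 at -0.19 (SE 0.10), Col3a1 at -0.16 (SE 0.13) and Col1a1 at -0.08 (SE 0.11).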

How the data were processed

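RNA of sorted LSK cells was measured on 7 mouse exon arrays, 3 from mice labelled TRAF6 transgenic and 4 from wild-type littermates, grouped by title. The deposited log2 values, 1 per transcript cluster and array, are the authors' RMA output on build mm9, per the submitters' processing notes. Its settings and annotation are not given in the sources used here. Values ran from 1.28 to 14.03, a range taken as a log2 scale.

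Differences, labelled transgenic minus wild type, were tested with limma 3.58.1 (lmFit, eBayes) in R 4.3.3, two-sided, on all 23332 clusters with genotype as the only term, no filter, and Benjamini-Hochberg adjustment over all clusters (threshold 0.05). The annotation gave 14996 clusters 1 symbol, 1019 several and 7317 none, and a gene with several clusters was represented by the highest-mean one. P-values measure the spread between these 7 mice, whose number limits the precision.

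Clusters of their own were found for 8 of 12 lymphoid-primed, 7 of 10 B cell, 7 of 10 T and NK cell, 11 of 12 granulocyte-monocyte, 8 of 12 erythroid, 9 of 12 megakaryocyte and 9 of 10 mast cell markers, and for 10 of 10 endothelial and 10 of 10 stromal ones. Lists came from general knowledge, and 15 of their 164 genes were in more than 1. Members and lists were chosen with earlier results of these data known, so the lists carry no test of their own. All 8 factors and Traf6 were named, with the 3 genes of smallest p from each other list and the 2 nearest profiles of each factor. Mds1, Eif2s3y, Tgm2, Ndn and Slamf1 were named after their values were seen. Figures used matplotlib 3.10.9 in Python 3.11.15. Alternatives were a low-signal filter (40th percentile), quantile normalization, centring on array medians, array weights, eBayes with trend and robust settings, 1 cluster per gene, unmoderated least squares, a threshold of 0.1, and leaving out each array. Replicate numbers do not overlap between groups.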

Additional observations from a re-analysis of the deposited data

Results flagged for a closer look

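Among 75 named genes and list means screened in the 4 wild-type arrays, 2 had an array far from the others, where the gap to its neighbour filled more of the group's range than Dixon's 95% limit for 4 samples. Chance flags about 1 in 20 such groups. The mean of the described targets was 8.18 on wild type 23 and 8.27, 8.28 and 8.29 on wild type 24, 21 and 22 (ratio 0.854). The stromal gene Col3a1 measured 5.66 on wild type 21 and 5.31 to 5.37 on the other wild-type arrays (ratio 0.839). None of the 8 factors was flagged in wild type, and groups of 3, such as the labelled transgenic arrays, were not screened.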

How the results depend on the processing

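The count of factors past the adjusted threshold was 0 in every alternative run, the smallest adjusted p being 0.158, for Hlf with array weights. Hlf was lower in 14 of 14 alternatives, from -0.713 to -0.323, with unadjusted p from 0.0038 to 0.0466. Only quantile normalization and centring changed its values, and its groups did not overlap in either. In the other alternatives, leaving out an array included, groups already separated could neither overlap nor turn in sign. Gata2 (0.0667 to 0.220) and Meis1 (-0.332 to -0.0063) also kept their sign. Traf6 ran from -0.362 to -0.0499. The sign of 5 factors, none past the threshold, turned in some alternatives, and the cause was not tested. With array weights Mecom was 0.192 and Prdm16 0.0093. When single arrays were dropped, the values spanned -0.318 to 0.284 for Mecom, -0.150 to 0.0383 for Prdm16 and -0.173 to 0.0205 for Etv6, with the upper value of each, above 0, reached without labelled transgenic 05. They spanned -0.0538 to 0.129 for Runx1 and -0.0893 to 0.254 for Erg, again highest without labelled transgenic 05. Mecom was also above 0 without wild type 24 (0.0087). Runx1 was below 0 when labelled transgenic 03 (-0.0129) or 04 (-0.0515) or wild type 21 (-0.0538) or 22 (-0.0023) was dropped, and Erg when labelled transgenic 03 (-0.0893) or 04 (-0.0721) or wild type 22 (-0.0510) was. The count of factors above all wild-type arrays was 2 without labelled transgenic 05 and 0 otherwise, and the median over the 8 ranged from -0.150 to 0.0838. The Mds1 cluster in place of the Mecom cluster, chosen after seeing the data, gave -0.560. The mean of several clusters per factor was not run, because each had 1. No paired analysis was possible because the groups share no replicate numbers.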
